A study of Homo sapiens with 3 samples.

Results

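The 10 genes described here encode the D-type cyclins and the proteins that act with them at the G1 checkpoint of the cell cycle: CCND1, CCND2, CCND3, CDK4, CDK6, CDKN1B, CDKN2A, CDKN2B, RB1 and RBL1. They were taken by symbol from a count table of 19220 genes and an FPKM table of 19225 genes, and all 10 were found in both tables. FPKM, fragments per kilobase of gene length scaled to the size of the library, allows levels to be compared between genes. The cells were parental CAL27, a human oral squamous cell carcinoma (OSCC) line with the genotype label WT that was grown in drug-free medium, and a pair of drug-resistant derivatives. CAL27/5FU cells were kept in 10 μM 5-fluorouracil (5FU), an inhibitor of thymidylate synthase, after stepwise selection in rising 5FU. CAL27/OXA cells were kept in 10 μM oxaliplatin (OXA), a platinum drug that crosslinks DNA, and how they were selected is not given in the sources used here. All 3 lines shared the same high-glucose medium with serum. The labels give 1 RNA-seq library of each line, so no difference has a replicate check, no p-value was computed, and resistance, the drug present in the medium and the derivation of a line cannot be told apart.

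D-type cyclins are the sensors of the cell cycle engine. Growth factor signals induce them, they bind CDK4 or CDK6, and the complexes phosphorylate the retinoblastoma protein RB1 and its relative p107 (the product of RBL1), which then release E2F transcription factors and let the cell enter S phase. INK4 proteins such as p16 (CDKN2A) and p15 (CDKN2B) block CDK4 and CDK6 directly, while p27 (CDKN1B) binds cyclin-CDK complexes and restrains CDK2. In squamous carcinomas of the head and neck this axis is often altered at the CCND1 and CDKN2A loci. CCND1 is also a known target of β-catenin, the arm of WNT signaling with which the study is concerned.

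The D-type cyclins carry a short motif, Leu-x-Cys-x-Glu, near their amino terminus, which can bind RB1 but is not their only contact with it. The first 30 bases of the coding sequences of CCND1 and CCND3 are shown because these genes share the motif while their levels differed between the lines in different ways. Capitals mark the codons of the motif, found by a search of the GENCODE 29 transcripts. They are codons 5 to 9 in CCND1 and codons 3 to 7 in CCND3.
CCND1 (GRCh38, plus strand, chr11:69641314-69641343): atggaacaccagCTCCTGTGCTGCGAAgtg
CCND3 (GRCh38, minus strand, chr6:41941620-41941649): atggagCTGCTGTGTTGCGAAggcacccgg

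The libraries held 37297713 to 43455488 counts, and the lowest count among the 10 genes was 505, that of CCND2 in CAL27. Ratios between libraries are of counts scaled with TMM factors of 0.9322 to 1.0494, and a ratio past 2-fold is what is called higher or lower here. They were formed for 13676 genes that averaged 10 counts or more, the 10 genes included. FPKM values carry no TMM factor, so a fold read off them differs somewhat from the scaled ratio. Intervals on ratios are exact 95% Clopper-Pearson intervals on the pair of counts and cover counting error only. All 10 markers of squamous epithelium that were looked up had counts in every library, but their summed level went from 15498 CPM (counts scaled to library size) in CAL27 to 3851 in CAL27/5FU and 5277 in CAL27/OXA, with 8 and 6 of the 10 lower past 2-fold. The 8 fibroblast markers summed to 41.9, 47.2 and 50.1 CPM in the same order. Most of this was COL1A1 (1387, 1068 and 1050 counts, within 2-fold), while COL1A2 (90, 300 and 212) and LUM (120, 414 and 877) were higher past 2-fold in both, and COL3A1 and THY1 were at 0 throughout. The 6 leukocyte markers summed to 97.3, 80.0 and 122 CPM, nearly all from CD68 (3143, 1827 and 5055 counts) and CD14 (637, 1290 and 341), with at most 2 counts of PTPRC. The 4 endothelial markers summed to 2.57, 9.35 and 4.70 CPM, with CDH5 higher past 2-fold in both resistant lines (43, 338 and 163 counts) and VWF and PECAM1 at 6 to 44 counts. The part of these shifts in the results below was not tested. In bulk RNA, fewer cells that express a gene and less of its RNA per cell cannot be told apart.

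In both resistant lines CCND1 and CCND2 were higher than in parental cells, CDKN2B was lower, and the other 7 genes stayed within 2-fold. CCND2 differed most, by 4.39-fold in CAL27/5FU and 12.6-fold in CAL27/OXA, while CCND1 was 2.83-fold and 2.92-fold higher. CDKN2B was 2.29-fold lower in CAL27/5FU and 2.82-fold lower in CAL27/OXA. Among all tested genes, 8.46% were called higher and 6.72% lower in CAL27/5FU, and 6.54% higher and 9.28% lower in CAL27/OXA. The counting intervals of CCND1, CCND2 and CDKN2B also lay wholly past 2-fold, as did those of 5.48% (higher) and 4.34% (lower) of tested genes in CAL27/5FU and of 3.85% and 6.32% in CAL27/OXA. With total counts in place of TMM factors, called genes that were higher made up 67.2% in place of 55.7% in CAL27/5FU and 51.1% in place of 41.3% in CAL27/OXA, and the median log2 ratio over tested genes came to 0.167 and 0.138. Against these rates 2 genes of 10 were higher and 1 was lower in each line, so the values of the single genes carry the account and not their number. Both lines were compared with the same CAL27 library, so the likeness of their calls is not a repeat of the measurement. The median log2 ratio of the 10 genes was 0.04 in CAL27/5FU and 0.22 in CAL27/OXA, beside -0.0035 and 0.0055 for all tested genes.

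**Figure D1:**
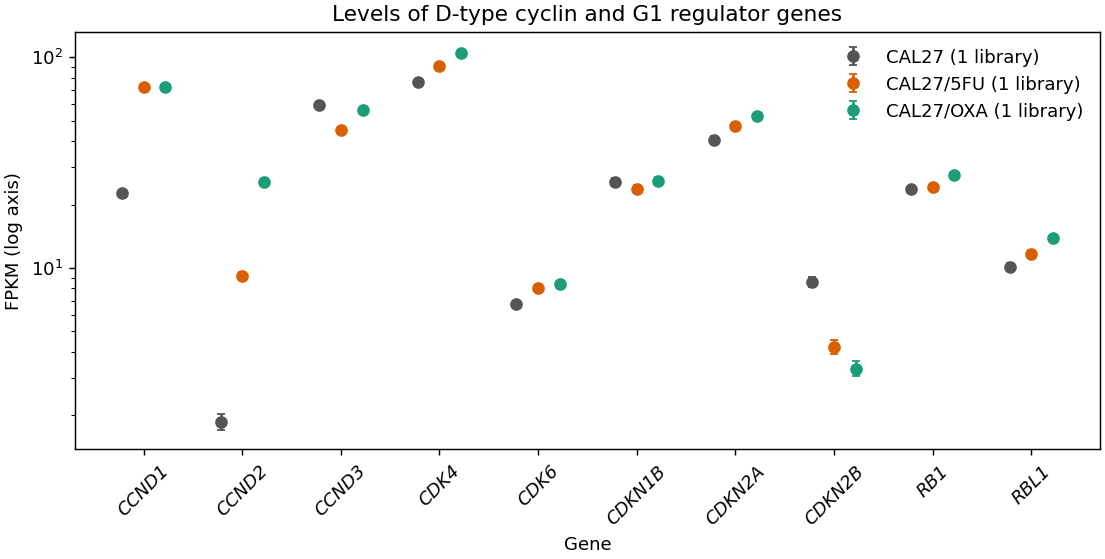
Levels of the 10 genes in FPKM on a log axis, with 1 point per library of CAL27, CAL27/5FU and CAL27/OXA and bars for the exact 95% Poisson interval, which covers counting error only. CCND1 is at 22.7 in CAL27 against 72.3 and 72.6, CCND2 at 1.85 against 9.18 and 25.7, and CDKN2B at 8.57 against 4.21 and 3.32.

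CCND1 encodes cyclin D1, the D-type cyclin most often gained in oral carcinoma. It had 4069 counts in CAL27, 11563 in CAL27/5FU cells and 13533 in CAL27/OXA cells, which is 22.7, 72.3 and 72.6 FPKM. The resistant lines were thus both high and close to each other. The log2 ratio to CAL27 was 1.5 (interval 1.45 to 1.55) in CAL27/5FU and 1.54 (1.49 to 1.60) in CAL27/OXA. Between the resistant lines it was 0.04 (0.01 to 0.08). By its ratio CCND1 ranked 657 of 13676 genes in CAL27/5FU and 468 in CAL27/OXA.

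CCND2 encodes cyclin D2. It had 505 counts in CAL27, 2233 in CAL27/5FU cells and 7281 in CAL27/OXA cells, or 1.85, 9.18 and 25.7 FPKM. All 3 libraries stood apart from each other, with the parental line lowest and the oxaliplatin line highest. The log2 ratio to CAL27 was 2.13 (2.0 to 2.28) in CAL27/5FU and 3.66 (3.53 to 3.79) in CAL27/OXA, and CCND2 ranked 350 and 74 by its ratio. It was the only one of the 10 genes that was past 2-fold between CAL27/OXA and CAL27/5FU, with a log2 ratio of 1.52 (1.45 to 1.59), where 4.18% of all tested genes were higher and 8.38% were lower, and 2.33% and 5.18% had an interval wholly past 2-fold. In parental cells its level was above 24.3% of the tested genes, against 49.2% in CAL27/5FU and 75.5% in CAL27/OXA. Of the 50-base words in its GENCODE transcripts, 13.2% also occur in another gene, nearly all of them in AC008012.1, a gene model on the same strand that spans CCND2 and is not in the count table under that name, so that reads there may have been left out or assigned elsewhere in all 3 libraries alike.

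CCND3 encodes cyclin D3, which binds the same kinases. It had 5173 counts in CAL27, 3511 in CAL27/5FU cells and 5097 in CAL27/OXA cells, or 59.2, 45.1 and 56.1 FPKM. CAL27/5FU was the lowest of the 3 libraries, and the parental and oxaliplatin lines were near each other. The log2 ratios to CAL27 were -0.57 (-0.63 to -0.50) and -0.21 (-0.27 to -0.15), both within 2-fold.

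The makeup of the D-type cyclin RNA therefore differed between the lines. Per length, CCND3 made up 70.7% of the summed FPKM of the 3 genes in CAL27, CCND1 27.1% and CCND2 2.21%. In CAL27/5FU the shares were 57.1% for CCND1, 35.6% for CCND3 and 7.26% for CCND2. In CAL27/OXA they were 47.0%, 36.4% and 16.6%. The leading D-type cyclin was CCND3 in the parental library and CCND1 in both resistant ones, and the ratio of CCND1 to CCND3 went from 0.383 to 1.60 and 1.29. The summed level was 83.8 FPKM in CAL27, 126 in CAL27/5FU cells and 154 in CAL27/OXA cells. These shares are ratios within a library and do not depend on the scaling between libraries, but they do depend on the gene lengths used for FPKM (4290 nt for CCND1, 6523 nt for CCND2 and 2089 nt for CCND3).

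**Figure D2:**
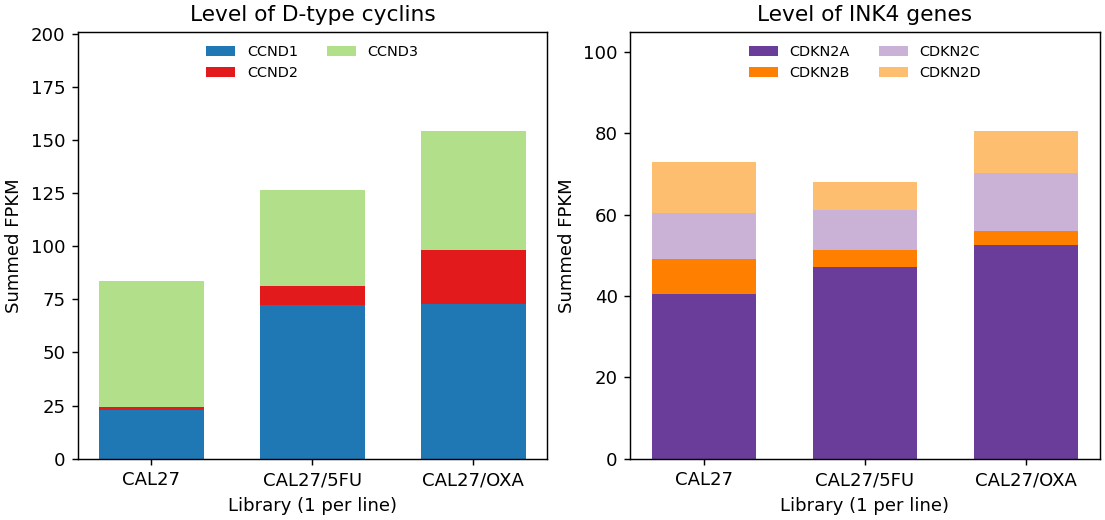
Summed FPKM of the 3 D-type cyclin genes (left) and of the 4 INK4 genes (right) in 1 library each of CAL27, CAL27/5FU and CAL27/OXA, with coloured segments for the single genes and no error bars since there is 1 library per line. The cyclin bar grows from 83.8 to 126 and 154 while the CCND3 segment shrinks as a share, and the INK4 bars stand at 73.0, 68.0 and 80.7.

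CDK4 and CDK6 encode the catalytic partners of the D-type cyclins. CDK4 had 6360, 6773 and 9110 counts in CAL27, CAL27/5FU and CAL27/OXA, or 76.0, 90.7 and 105 FPKM, and was the highest of the 10 genes in every library. CDK6 had 3292, 3492 and 4270 counts, or 6.75, 8.02 and 8.42 FPKM. Both kinases were close to the parental level in each resistant line, and CDK4 made up 91.8% to 92.6% of their summed FPKM. The log2 ratios of CDK4 were 0.08 (0.03 to 0.13) and 0.33 (0.28 to 0.38), and those of CDK6 were 0.08 (0.01 to 0.15) and 0.19 (0.12 to 0.25). At these depths 36.6% of all tested genes had an interval wholly above 0 in CAL27/5FU and 38.0% had one wholly below 0, with 38.0% and 37.5% in CAL27/OXA and 36.4% and 35.5% between the resistant lines, so an interval that leaves out 0 does not set a gene apart. The summed D-type cyclins amounted to 1.01 times the summed kinases in CAL27, 1.28 times in CAL27/5FU and 1.37 times in CAL27/OXA, in FPKM. These are ratios of RNA, and the libraries do not measure protein.

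The INK4 genes CDKN2A and CDKN2B lie side by side on the minus strand of chromosome 9 (GRCh38, 21967753 to 21995301 and 22002903 to 22009363, from GENCODE 29). Their INK4 products p16 and p15 have the same targets, yet the levels of the 2 genes went apart. CDKN2B, which encodes p15, a cell cycle brake known to be induced by TGF-β, had 1405 counts in CAL27, 616 in CAL27/5FU cells and 566 in CAL27/OXA cells, or 8.57, 4.21 and 3.32 FPKM. The parental library was the highest and the resistant ones were both low. The log2 ratio was -1.19 (-1.34 to -1.06) in CAL27/5FU and -1.5 (-1.64 to -1.36) in CAL27/OXA, and -0.30 (-0.47 to -0.14) between the resistant lines. Taken as log2(FPKM + 1), the difference in CAL27/5FU was -0.88 and no longer past 2-fold.

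CDKN2A had 2144, 2226 and 2906 counts in the same order, or 40.4, 47.0 and 52.6 FPKM. No resistant library was below the parental one, and the log2 ratios were 0.05 (-0.04 to 0.13) and 0.25 (0.17 to 0.33). The ratio of CDKN2A to CDKN2B in FPKM was 4.71 in CAL27, 11.2 in CAL27/5FU cells and 15.9 in CAL27/OXA cells. CDKN2A gives rise to both p16 and, from another first exon, p14ARF, an activator of p53, and counts per gene do not separate these transcripts. Only 31 of the 50-base words were shared by CDKN2A and CDKN2B, which is 0.681% and 0.765% of their words. CDKN2B lies wholly within the opposite-strand gene CDKN2B-AS1, which also overlaps CDKN2A by 524 bases. Both CDKN2A and CDKN2B lie wholly within the opposite-strand gene model AL359922.1. CCND2 overlaps CCND2-AS1 on the opposite strand by 2413 bases. CCND1, CCND3, CDK4, CDK6, RB1 and RBL1 also overlap genes on the opposite strand. Since no source used here states that strand was used in counting, reads from such overlaps cannot be told apart.

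The stretches before the starts of both genes are shown because their ratios to CAL27 differed while the genes lie next to each other. Whether these stretches bear on the levels was not tested. Each is the 250 bases before the start in the RefSeq table (GRCh38.p14, minus strand), written in the direction of the gene, and capitals mark GGGCGG or its reverse complement, the core bound by SP1-type factors. CDKN2B holds 2 matches and CDKN2A, at the start nearest to the body of the gene, holds 1. This CDKN2A window lies inside the annotated gene (21967753 to 21995301), and the window at its other start holds 0. Of the 35116 windows of this length in the table, 42.6% hold at least 1.
CDKN2B (chr9:22009306-22009555): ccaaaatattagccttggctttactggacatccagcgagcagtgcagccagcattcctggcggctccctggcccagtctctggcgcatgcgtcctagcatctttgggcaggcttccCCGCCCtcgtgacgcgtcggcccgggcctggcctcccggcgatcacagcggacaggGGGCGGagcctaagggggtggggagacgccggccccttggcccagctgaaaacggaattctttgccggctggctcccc
CDKN2A (chr9:21974858-21975107): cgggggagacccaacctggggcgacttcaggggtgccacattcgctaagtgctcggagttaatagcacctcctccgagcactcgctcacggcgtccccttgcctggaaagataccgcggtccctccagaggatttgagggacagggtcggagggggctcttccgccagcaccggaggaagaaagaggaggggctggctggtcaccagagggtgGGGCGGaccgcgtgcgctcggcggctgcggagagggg

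CDKN1B encodes p27, which holds CDK2 in check in resting cells and is largely controlled by protein turnover. It had 2700 counts in CAL27, 2242 in CAL27/5FU cells and 2846 in CAL27/OXA cells, or 25.6, 23.8 and 26.0 FPKM. The libraries were close together. Its log2 ratios were -0.27 (-0.36 to -0.19) in CAL27/5FU and -0.11 (-0.19 to -0.04) in CAL27/OXA, the latter turning to 0.02 under scaling by total counts.

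RB1, the retinoblastoma protein gene, had 4711, 4291 and 5698 counts in CAL27, CAL27/5FU and CAL27/OXA, or 23.6, 24.1 and 27.5 FPKM. Its log2 ratio was -0.14 (-0.20 to -0.08) in CAL27/5FU, which turned to 0.03 under scaling by total counts, and 0.08 (0.03 to 0.14) in CAL27/OXA. RBL1 had 2254, 2324 and 3232 counts, or 10.1, 11.7 and 13.9 FPKM, with log2 ratios of 0.04 (-0.05 to 0.12) and 0.33 (0.25 to 0.41). Both pocket protein genes were thus expressed in every line and stayed well within 2-fold. RBL2, which encodes their relative p130, made up 34.3% of the summed FPKM of the family in CAL27, 36.3% in CAL27/5FU cells and 39.3% in CAL27/OXA cells.

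RBL1 is itself a classical E2F target, and CDK4 a known target of MYC through E-boxes. The 250 bases before their starts are shown since, of 12 windows of 8 of the 10 genes, they alone held the motif in question. In the RBL1 window, capitals mark matches to the E2F motif (TTTCCCGC, TTTGGCGC, TTTCGCGC or TTTGCCGC, both strands), which was present in 2.79% of all windows. In the CDK4 window, capitals mark the palindromic E-box CACGTG, which was present in 6.34% of all windows. No window of CCND1 or CCND2 was searched. The only RB1 window starts at 48476200 on chromosome 13, inside the annotated gene (48303726 to 48599436). The stretch before the annotated start of RB1 was therefore not searched either. None of the 12 windows held a TCF/LEF motif (the word CTTTGAA, the word CTTTGAT, the word CTTTGTT or the word CTTTGTA, both strands), which 12.0% of all windows held. Matches are descriptions of letters and not evidence of binding.
RBL1 (GRCh38.p14, minus strand, chr20:37095998-37096247): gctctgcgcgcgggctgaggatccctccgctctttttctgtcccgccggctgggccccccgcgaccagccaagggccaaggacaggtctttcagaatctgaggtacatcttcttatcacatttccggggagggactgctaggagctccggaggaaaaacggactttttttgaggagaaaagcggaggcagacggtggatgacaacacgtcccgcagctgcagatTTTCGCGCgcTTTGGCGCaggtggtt
CDK4 (GRCh38.p14, minus strand, chr12:57752311-57752560): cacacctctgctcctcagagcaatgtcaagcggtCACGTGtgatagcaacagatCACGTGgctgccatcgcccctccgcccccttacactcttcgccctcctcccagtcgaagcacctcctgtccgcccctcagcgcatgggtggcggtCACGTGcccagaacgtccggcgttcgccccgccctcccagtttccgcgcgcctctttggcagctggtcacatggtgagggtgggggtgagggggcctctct

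**Figure D3:**
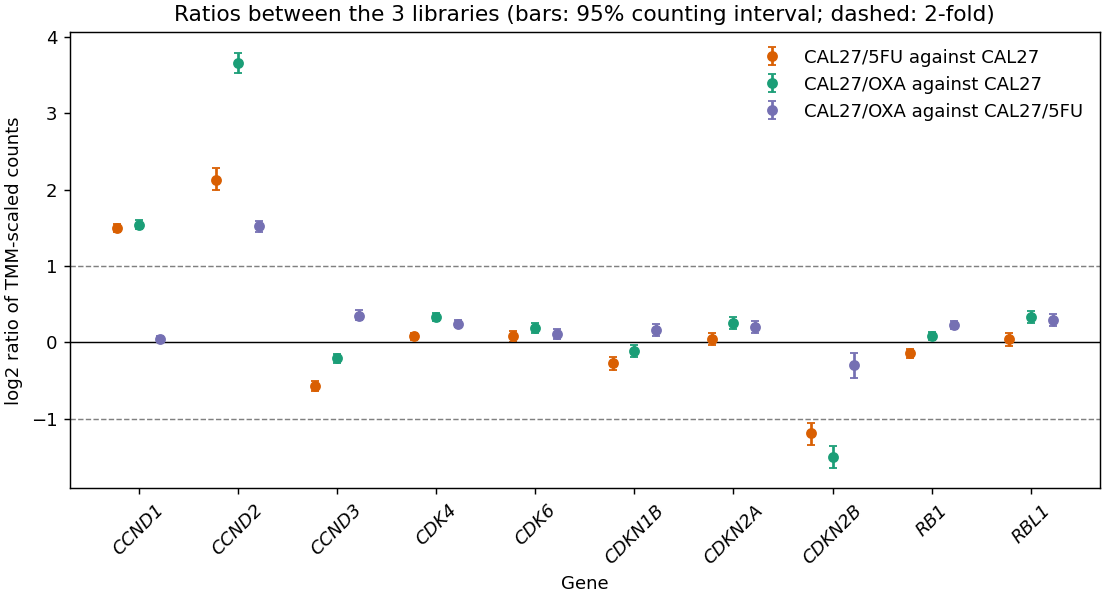
Log2 ratios of TMM-scaled counts for the 10 genes in the 3 comparisons, with bars for the exact 95% counting interval and dashed lines at 2-fold, and 1 library per line. CCND1 (1.5 and 1.54) and CCND2 (2.13 and 3.66) lie above the upper line against CAL27, CDKN2B (-1.19 and -1.5) lies below the lower one, and CCND2 alone is past 2-fold between the resistant lines (1.52).

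The order of the levels per length differed accordingly. In CAL27 it ran CDK4, CCND3, CDKN2A, CDKN1B, RB1, CCND1, RBL1, CDKN2B, CDK6 and CCND2, from 76.0 down to 1.85 FPKM, and of the neighbours in this order RB1 and CCND1 had overlapping Poisson intervals. In CAL27/5FU CCND1 took the second place and CDKN2B the last, at 4.21 FPKM, and the intervals of CDKN2A and CCND3 and those of RB1 and CDKN1B overlapped. In CAL27/OXA CCND2 stood seventh with 25.7 FPKM, within the counting error of CDKN1B at 26.0, and CDKN1B was within that of RB1.

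The position of the 3 genes past 2-fold was used to look at the genes around them, 5 tested genes on each side in GENCODE 29. CCND1 lies on chromosome 11 from 69641087 to 69654474. Its 10 neighbours had a median log2 ratio of 0.04 in CAL27/5FU and 0.09 in CAL27/OXA. Of these, MYEOV, the tested gene next to CCND1 on its centromeric side, was higher in both lines, with 90, 1008 and 955 counts in CAL27, CAL27/5FU and CAL27/OXA and log2 ratios of 3.45 and 3.19. ANO1, a chloride channel gene on the other side, had 119, 10 and 20 counts and log2 ratios of -3.35 and -2.64, and was named after its values were seen. The genes FADD, PPFIA1 and CTTN farther along, also named after their values were seen, had ratios from -0.11 to 0.16. ORAOV1 overlaps the end of CCND1 by 1399 bases on the opposite strand and had log2 ratios of 0.07 and 0.27.

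CCND2 lies on chromosome 12 from 4273772 to 4305350. None of its 10 neighbours was past 2-fold in the same direction, and their median log2 ratio was 0.13 in CAL27/5FU and 0.32 in CAL27/OXA, against 2.13 and 3.66 for CCND2. TIGAR, the next tested gene, had 0.21 and 0.42. CDKN2B had neighbours with a median of 0.21 and 0.32, and none of the 10 was lower past 2-fold in both lines. TUSC1 had -3.29 in CAL27/5FU with 833, 84 and 1595 counts in CAL27, CAL27/5FU and CAL27/OXA, and 0.75 in CAL27/OXA. MTAP, which lies beyond CDKN2A and is often lost together with it in tumours, had 4088, 4676 and 6142 counts.

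**Figure D4:**
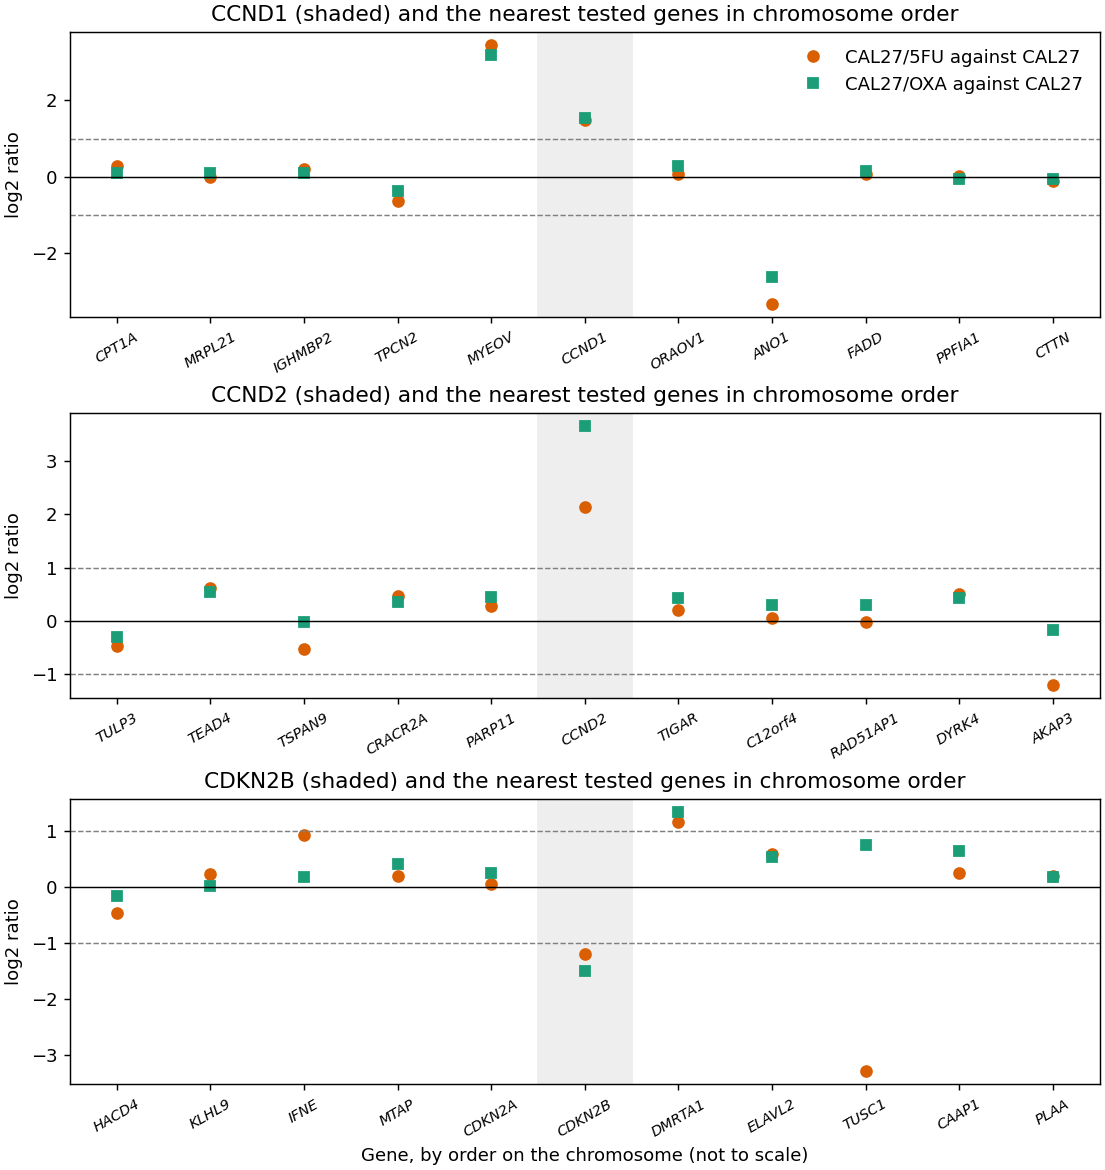
Log2 ratios of CAL27/5FU (circles) and CAL27/OXA (squares) to CAL27 for CCND1, CCND2 and CDKN2B (shaded) and the 5 tested genes on each side, in chromosome order and not to scale, with dashed lines at 2-fold. CCND2 at 2.13 and 3.66 lies above all the genes beside it, CDKN2B lies below all of its own in CAL27/OXA (-1.5) but not in CAL27/5FU (-1.19, with TUSC1 at -3.29), and MYEOV next to CCND1 reaches 3.45 and 3.19.

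For each of the 3 genes, the tested genes with the most similar pattern were sought among genes averaging 100 counts or more, by the Euclidean distance between the pairs of log2 ratios to CAL27, over the 3 libraries. Nearest to CCND1 were HHEX (distance 0.0191), STAMBPL1 (0.0276) and ENC1 (0.0870), and 28 genes lay within 0.25. Nearest to CCND2 were CAMK4 (0.341), FLNC (0.369) and FBN2 (0.449), with 0 genes within 0.25. Nearest to CDKN2B were LPIN3 (0.0234), RAP1GAP (0.0732) and HDAC5 (0.0789), with 49 genes within 0.25. CCND2 thus had no close match, unlike CCND1 and CDKN2B. Fewer genes have ratios as large as those of CCND2, which ranked 74 in CAL27/OXA where CCND1 ranked 468. Its count of 0 within a fixed distance therefore also depends on the size of its ratios.

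The other genes of the pathway were taken as lists written from general knowledge. Of 4 other inhibitors of the G1 kinases, 2 were lower past 2-fold in CAL27/5FU and 0 higher, with a median log2 ratio of -0.99, and 1 was lower and 0 higher in CAL27/OXA, with a median of -0.50. Over all tested genes 6.72% were lower in CAL27/5FU and 9.28% in CAL27/OXA, and with 4 genes a count of 1 or 2 is little to read against these rates. CDKN1C, which encodes p57, had 40, 13 and 20 counts in CAL27, CAL27/5FU and CAL27/OXA and log2 ratios of -1.5 (-2.66 to -0.70) and -1.11 (-2.04 to -0.38). CDKN2D, which encodes the INK4 protein p19, had 665, 330 and 581 counts and log2 ratios of -1.01 (-1.21 to -0.83) and -0.38 (-0.55 to -0.22). CDKN1A, which encodes the p53-induced inhibitor p21, was just short of the call in CAL27/5FU, with 4288, 2197 and 3178 counts and log2 ratios of -0.97 (-1.05 to -0.90) and -0.62 (-0.69 to -0.56). All 4 inhibitors, CDKN2C at -0.39 included, had negative ratios in CAL27/5FU, and 3 of 4 did in CAL27/OXA. The median over all tested genes was -0.0035 in CAL27/5FU and 0.0055 in CAL27/OXA, so negative ratios were common. The signs of 4 genes are thus also little to read. In FPKM, the summed D-type cyclins amounted to 1.15 times the summed 4 INK4 genes in CAL27, 1.86 times in CAL27/5FU and 1.91 times in CAL27/OXA. These too are ratios of RNA, and the CDKN2A level in the INK4 sum includes any p14ARF transcripts.

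Of 7 genes of cyclin E-CDK2 and its activators, the next step after the D-type cyclins, 1 was lower in CAL27/5FU and 0 were past 2-fold in CAL27/OXA. The shares of all tested genes were 8.46% higher and 6.72% lower in CAL27/5FU, and 6.54% and 9.28% in CAL27/OXA. Between the resistant lines they were 4.18% and 8.38%. With 7 genes, a count of 1 is little to read against these rates. CCNE2, which encodes cyclin E2, had 696, 301 and 700 counts in CAL27, CAL27/5FU and CAL27/OXA, with log2 ratios of -1.21 (-1.42 to -1.02) and -0.18 (-0.33 to -0.03), and was past 2-fold between the resistant lines at 1.03 (0.84 to 1.23). The largest of the 7 ratios in CAL27/OXA was that of CDC25A, a phosphatase that activates CDK2, at 0.61 (0.45 to 0.77).

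Of 11 RB partners, 1 was lower in CAL27/5FU and 1 was higher in CAL27/OXA. Among all tested genes, 8.46% were higher and 6.72% lower in CAL27/5FU, and 6.54% and 9.28% in CAL27/OXA. Between the resistant lines the shares were 4.18% and 8.38%. With 11 genes, a count of 1 is little to read against these rates. TFDP2, which encodes a dimer partner of E2F factors, had 2664, 1194 and 2015 counts in CAL27, CAL27/5FU and CAL27/OXA and log2 ratios of -1.16 and -0.59. E2F7, a repressive E2F, had 1877, 2469 and 5535 counts and ratios of 0.39 and 1.37. Between the resistant lines TFDP1, the other dimer partner, was higher in CAL27/OXA at 1.27, with 10228, 7683 and 21050 counts, and E2F5 was lower at -1.33, with 181, 340 and 152 counts. E2F1, which drives S phase entry, was within 2-fold at 0.47 and 0.59.

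Of 20 S-phase genes driven by E2F, 0 were past 2-fold in either line against CAL27. Beside this, 8.46% of all tested genes were higher and 6.72% lower in CAL27/5FU, and 6.54% and 9.28% in CAL27/OXA. Between the resistant lines 4.18% of tested genes were higher and 8.38% lower. Over all tested genes the median log2 ratio was -0.0035 in CAL27/5FU and 0.0055 in CAL27/OXA. That of the 20 genes was -0.16 in CAL27/5FU, with 13 negative, and 0.22 in CAL27/OXA, with 13 positive. The farthest were MCM2, a helicase subunit, at -0.90 in CAL27/5FU with 9955, 5350 and 15252 counts in CAL27, CAL27/5FU and CAL27/OXA, and RRM2, a subunit of ribonucleotide reductase, at -0.97 in CAL27/OXA with 14702, 9191 and 8584 counts. MCM2 was past 2-fold between the resistant lines at 1.33. Against CAL27, none of these genes downstream of RB1 was as far off as CCND1 or CCND2, which are named here because their ratios were large.

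Of 13 genes of cyclin D and p27 turnover, 0 were past 2-fold in CAL27/5FU or CAL27/OXA. Of all tested genes, 8.46% were higher and 6.72% lower in CAL27/5FU, and 6.54% and 9.28% in CAL27/OXA. Between the resistant lines 4.18% were higher and 8.38% lower. The largest ratios among the 13 were those of GSK3B, the kinase that marks cyclin D1 for export and degradation, at -0.98 in CAL27/5FU and 0.06 in CAL27/OXA, and of FBXO31, a receptor of a cyclin D1 ubiquitin ligase, at 0.27 and -0.94. Both were past 2-fold between the resistant lines, GSK3B at 1.04 and FBXO31 at -1.21.

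Of 23 transcription factors and chromatin proteins that act on these genes, 4 were higher and 1 was lower in CAL27/5FU, and 5 were higher and 2 lower in CAL27/OXA. Over all tested genes 8.46% were higher and 6.72% lower in CAL27/5FU, and 6.54% and 9.28% in CAL27/OXA. Their median log2 ratio was -0.28 and -0.19. FOSL1, an AP-1 subunit, had 2805, 8377 and 21063 counts in CAL27, CAL27/5FU and CAL27/OXA, with log2 ratios of 1.57 (1.51 to 1.63) and 2.72 (2.66 to 2.78), and was past 2-fold between the resistant lines at 1.15 (1.11 to 1.18). FOSL1, like CCND2, JUN and EGR1, was lowest in parental cells and highest in CAL27/OXA. A link between these genes was not tested. The AP-1 gene JUN was at 0.44 and 1.09, and FOS, another one, was lower at -1.04 and -1.19. EGR1, an immediate early factor, was at 0.94 and 1.66. The β-catenin partners TCF7 and LEF1 were higher in both lines, TCF7 at 2.34 and 1.92 with 59, 307 and 261 counts and LEF1 at 2.47 and 2.42 with 57, 327 and 357 counts. Their relatives TCF7L1 and TCF7L2 had more counts in CAL27 and went the other way, within 2-fold. TCF7L1 was at -0.99 and -0.16 with 643, 324 and 655 counts. TCF7L2 was at -0.66 and -0.46 with 945, 599 and 781 counts. CTNNB1, the β-catenin gene, was at -0.36 and -0.08. ETS1 was at 1.15 and 0.90 and ETS2 at -0.97 and -1.03. MYC, which acts on CDK4 and CCND2, was within 2-fold at -0.46 and -0.24. BMI1, EZH2 and CBX7, repressors of the INK4 genes, were also within 2-fold and went different ways. BMI1 was at 0.92 (0.43 to 1.48) and 0.66 (0.16 to 1.22), with only 48, 93 and 88 counts. EZH2 was at -0.12 and -0.14, and CBX7 at -0.64 and -0.96 with 938, 604 and 547 counts.

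**Figure D5:**
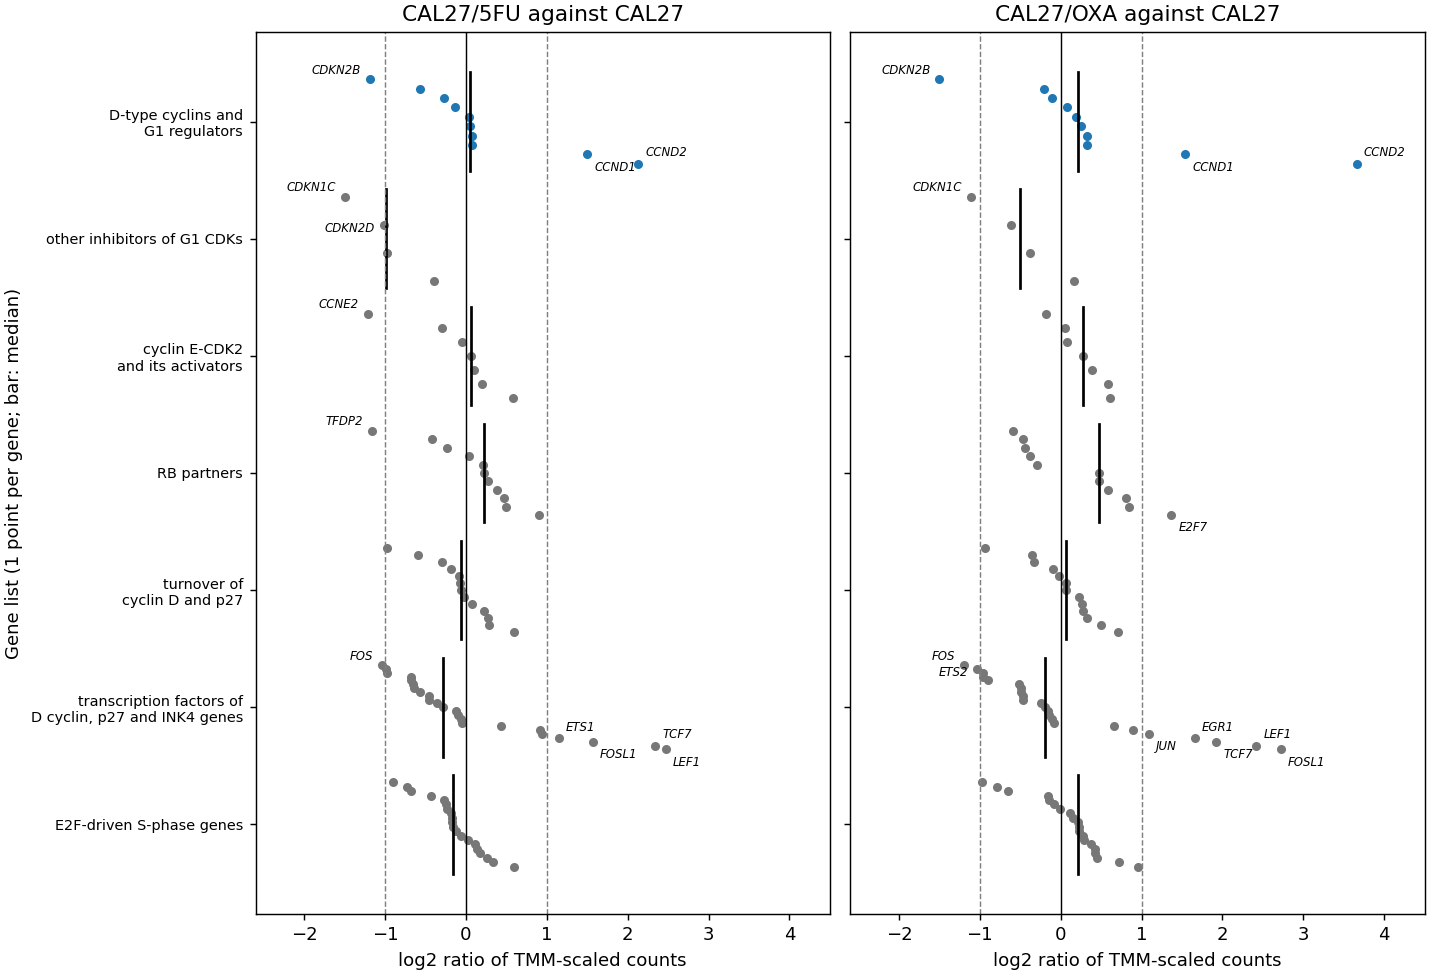
Log2 ratios of TMM-scaled counts to CAL27 in CAL27/5FU (left) and CAL27/OXA (right) for the 10 genes and 6 lists of other G1 genes, with 1 point per gene, a bar at the median of each list and names for genes past 2-fold (dashed lines). The S-phase genes all lie within 2-fold, with medians of -0.16 and 0.22, while CCND2 at 2.13 and 3.66 is the highest of the 10 genes in both panels.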

How the data were processed

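Total RNA of 3 cultures was made into libraries with the NEBNext Ultra RNA kit, sequenced on an Illumina NovaSeq and processed by Novogene. The submitters' processing notes name CASAVA 1.8, HISAT2 2.0.5 and GRCh38. The counting tool, the annotation and the use of strand are not given in the sources used here. The authors deposited raw counts per gene symbol and FPKM values. Among the 14367 genes counted in every library, 100% gave 1 gene length within 0.1% from deposited count and FPKM, so FPKM is scaled by total counts alone. A further 3 columns of per-sample values, named like those used but numbered 2 in place of 1, match no sample label and were not used, so whether they are second libraries of these lines was not examined.

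TMM factors came from edgeR 4.0.16 and ratios from log2 CPM with a prior count of 2. DESeq2 1.42.0 served for an alternative scaling. Genes and lists were chosen with earlier results of these data known. Named are the 10 genes, members of the other lists past 2-fold in a comparison or else the farthest one, the 3 genes nearest in pattern and neighbours past 2-fold in the same direction. Others were named after their values were seen or as background. Positions came from GENCODE 29, matched for 19073 symbols (264 through RefSeq synonyms). The calculation was tested on simulated Poisson counts that had no spread between cultures and were scaled by total counts. That test checks the arithmetic of the ratios and not the comparison of single libraries. The coding start of CCND2 is not reported here.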

Additional observations from a re-analysis of the deposited data

How the results depend on the processing

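No paired analysis was possible because the labels give 1 library of each line, so none was left out either. The 3 calls among the 10 genes against CAL27 (CCND1, CCND2, CDKN2B) had the same direction under every scaling, filter, prior count and unit tried. Depth limits only CDKN1C and other genes of few counts, and the intervals leave out the spread between cultures. Counts below give higher and lower genes for CAL27/5FU against CAL27, then CAL27/OXA against CAL27, then CAL27/OXA against CAL27/5FU.

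With all genes kept that had a count in some library, 1899 and 1555, 1348 and 1925, and 981 and 1861 tested genes were past 2-fold. With a mean of 50 counts or more, 760 were higher in CAL27/5FU against CAL27 and 369 in CAL27/OXA against CAL27/5FU. With log2(FPKM + 1), 503 and 311, 368 and 481, and 165 and 437 were past 2-fold, and with a mean FPKM of at least 1 besides, 482 and 292, 345 and 452, and 153 and 415. Under both of these 0 of the 10 genes were lower in CAL27/5FU. At 4-fold, 404 and 286, 296 and 412, and 167 and 352 were called, and of the 10 genes 1 was higher in each resistant line against CAL27 (CCND2), 0 were lower, and 0 were higher between the resistant lines. At 1.5-fold, 2084 and 1921, 1925 and 2330, and 1401 and 2060 were called. With the whole interval past 2-fold, 749 and 593 were called in the first comparison, 526 were higher in the second, and 319 and 709 were called in the third.

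From counts not divided by length, CCND1 made up 41.7%, 66.8% and 52.2% of the D-type cyclin sum in CAL27, CAL27/5FU and CAL27/OXA, CCND2 5.18%, 12.9% and 28.1%, and CCND3 53.1%, 20.3% and 19.7%. Of the single ratios of the 10 genes under other settings, 210 lay within the counting interval of the reported ratio and 60 outside it, and none of those past 2-fold changed sign. RB1 in CAL27/5FU and CDKN1B in CAL27/OXA, both within 2-fold, changed sign under total counts and FPKM.

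With 10 genes on each side in place of 5, the median log2 ratio of the neighbours was -0.06 for CCND1, -0.03 for CCND2, -0.07 for CCND3, 0.18 for CDK4, 0.04 for CDK6, 0.12 for CDKN2A and 0.22 for CDKN2B in CAL27/OXA, and 0.02 for CCND2, 0.15 for CDK4, 0.15 for CDK6, 0.11 for CDKN1B and 0.05 for CDKN2A in CAL27/5FU.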

Other observations

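Of the 10 genes, 3 overlap other genes of the count table on the opposite strand. TSPAN31 and MARCH9 overlap CDK4 by 2485 and 916 bases. TSPAN31 had 858, 909 and 1004 counts in CAL27, CAL27/5FU and CAL27/OXA, and MARCH9 had 408, 752 and 558, against at least 6360 for CDK4. LPAR6 and RCBTB2, which overlap RB1, had 253, 422 and 377 counts and 256, 338 and 376 counts, against at least 4291 for RB1. ORAOV1, which overlaps CCND1 by 1399 bases, had 1209, 1276 and 1665 counts, against 4069, 11563 and 13533 for CCND1, so it was a larger part of its partner in CAL27 than in the resistant lines.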
